A study of Gallus gallus with 6 samples.

Results

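In chicken forelimb buds, 38 genes stood clearly higher in tissue posterior to an FGF2 bead than posterior to a PBS bead 3 h after implantation. They were chosen from the values themselves, as the genes that averaged at least 5 RPKM over the 6 libraries and whose smallest FGF2 value was at least 1.5 times their largest PBS value. RPKM is a read count divided by gene-model length and by sequencing depth. It does not correct for other differences between libraries, such as those in RNA composition. The 38 genes were 0.503% of the 7551 genes at that level, out of 24881 Ensembl gene IDs listed. The mirrored rule, with the largest FGF2 value at most the smallest PBS value divided by 1.5, took 12 genes. This balance of directions was not that of every method, since a paired fit on reads given further on called 14 genes higher and 26 lower with FGF2. Since the rule used the difference between FGF2 and PBS, the size of that difference is a description of these genes and not evidence for a response.

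FGF2 is a secreted growth factor of the apical ectodermal ridge, the epithelial rim that keeps the limb bud growing outward. It binds FGF receptors on the cell surface with the help of heparan sulfate, and the receptors signal through RAS and ERK to the nucleus. Among the genes that typically answer ERK signaling within hours are those of transcription factors and of phosphatases and adaptors that damp the same pathway. In the posterior limb mesoderm, signals of the ridge keep *SHH* switched on in the zone of polarizing activity, and *SHH* in turn maintains FGF genes in the ridge. Which of the 38 IDs belong to such genes cannot be said from the sources used here, because none of them pairs an Ensembl ID with a gene name.

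The 3 FGF2 libraries came from tissue directly posterior to a heparin acrylic bead soaked in recombinant human FGF2, and the 3 PBS libraries from tissue posterior to a bead soaked in PBS alone. All beads were placed in the posterior mesoderm of embryos at Hamburger-Hamilton stage 23, about 500 µm from the distal tip, and the embryos were incubated for another 3 h. Each library held the pooled RNA of 15 to 20 embryos (limbs, in the labels), so variation between single embryos was not measured. No strain, sex or genetic change is given for either treatment. The tissue held mesoderm together with any overlying ectoderm, vessels and nerves, and its markers were not checked for lack of gene names. In such bulk tissue, more cells of a type and more RNA per cell cannot be told apart.

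Because RPKM come from whole reads, the values of low genes fall on steps, and these steps gave the counted reads of each library and the reads and gene-model length of each gene. FGF2 libraries 1, 2 and 3 held 15318608, 21359458 and 19807865 counted reads, and PBS libraries 1, 2 and 3 held 5222427, 16726321 and 16883479. PBS library 1 was thus the shallowest: for a 1-kilobase gene model, a single read made 0.191 RPKM there and 0.0468 RPKM in FGF2 library 2, the deepest. The number of genes above 0 did not follow depth. It was 15823, 13202 and 13744 in FGF2 libraries 1, 2 and 3, against 14664, 12252 and 14500 in PBS libraries 1, 2 and 3, so that PBS library 2 stood lowest. Without PBS library 2 the rule took 60 genes, the 38 among them, and the median difference of the 38 on the log2(RPKM + 0.5) scale was 1.16. Over the 13381 genes tested, the median difference between FGF2 and PBS was 0.11 on the log2(RPKM + 0.5) scale, and after median-ratio scaling it was -0.01. The factors of that scaling ran from 0.909 in PBS library 2 to 1.18 in FGF2 library 1, so RPKM were not fully level between libraries.

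The genes were numbered 1 to 38 by the ratio of the smallest FGF2 to the largest PBS value, with gene 1 the largest. This ratio had a median of 1.63. It was at least 2 in 8 genes and below 2 in 30, of which 16 lay below 1.6. The ratio of the FGF2 mean to the PBS mean had a median of 2.55, reached at least 2 in 29 of the 38 genes and at least 4 in 8. Its lowest value was 1.59, in gene 38. On the log2(RPKM + 0.5) scale, the difference between the treatment means had a median of 1.26 over the 38 genes, beside 0.11 over all genes tested.

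**Figure D1:**
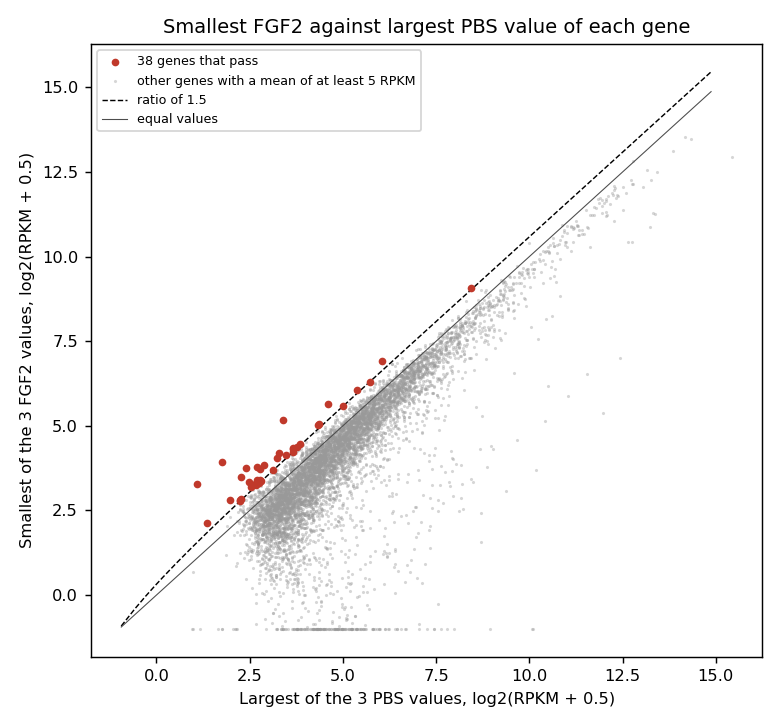
Each point is 1 gene that averaged at least 5 RPKM and has a PBS value above 0. The smallest FGF2 value stands on the vertical and the largest PBS value on the horizontal axis, both as log2(RPKM + 0.5). The 38 genes lie on or above the dashed line at a ratio of 1.5, at low and middle levels except for 1 gene at the upper right, whose ratio is 1.56.

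Gene 1, ENSGALG00000007669, had the largest ratio, 5.72. It stood at 34.1, 9.23 and 16.9 RPKM in FGF2 libraries 1, 2 and 3, against 1.39, 1.61 and 1.22 RPKM in PBS libraries 1, 2 and 3. The treatments did not overlap, and the PBS libraries lay close together while the FGF2 libraries differed from each other by up to 3.70 times. The means were 20.1 ± 12.7 RPKM with FGF2 and 1.41 ± 0.199 RPKM with PBS (SD, n = 3 per treatment), and their ratio was 14.3. These values rest on 1297, 489 and 832 reads with FGF2 and on 18, 67 and 51 reads with PBS, over a gene model of 2481 bases. Its difference of 3.25 on the log2(RPKM + 0.5) scale had a standard error of 0.55 in limma.

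Gene 2, ENSGALG00000025418, varied more between FGF2 libraries than any other of the 38 except gene 13. It stood at 14.6, 16.4 and 96.1 RPKM in FGF2 libraries 1, 2 and 3, against 2.86 RPKM in PBS library 1 and 0 RPKM in PBS libraries 2 and 3. FGF2 library 3 was thus far above the other two FGF2 libraries. Its gene model has 134 bases, and the values are 30, 47 and 255 reads with FGF2 against 2, 0 and 0 reads with PBS. The ratio of the pooled reads, each scaled by the pooled library totals, was 114, with a 95% interval of 31.3 to 946 (exact Clopper-Pearson, counting error only). The rule chose the gene by these same reads, and pooling ignores the differences between libraries. The interval is therefore a description and not evidence for a response. It was 40.8 without FGF2 library 3, 65.0 without PBS library 2 and 64.5 without PBS library 3, and without PBS library 1 no PBS read was left.

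Genes 3 to 8 had ratios from 2.0001 to 3.56. Gene 3 stood at 35.5, 36.9 and 44.9 RPKM in FGF2 libraries 1, 2 and 3, against 9.96, 8.24 and 9.75 RPKM in PBS libraries 1, 2 and 3. Both treatments were tight here, within 1.27 times among the FGF2 libraries and 1.21 times among the PBS libraries. Gene 4 stood at 13.5, 13.0 and 20.8 RPKM with FGF2 and at 4.75, 4.00 and 4.03 RPKM with PBS. Gene 5 stood at 10.8, 18.6 and 16.7 RPKM with FGF2 and at 2.41, 4.06 and 4.32 RPKM with PBS. In gene 5 the libraries numbered 1 were the lowest of both treatments, while in gene 4 FGF2 library 3 stood above the rest.

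Gene 6 stood at 13.3, 15.0 and 13.4 RPKM in FGF2 libraries 1, 2 and 3, against 5.999, 5.36 and 2.68 RPKM in PBS libraries 1, 2 and 3. Gene 7 was the most abundant of the first 8, with 49.1, 55.6 and 64.9 RPKM with FGF2 and 23.7, 23.9 and 18.9 RPKM with PBS. Gene 8 stood at 13.7, 15.2 and 19.2 RPKM with FGF2 and at 6.86, 5.97 and 5.83 RPKM with PBS. In genes 6, 7 and 8 the largest ratio was the one between the libraries numbered 3, at 5.02, 3.42 and 3.29. Within genes 3 to 8, the largest spread was in PBS, where gene 6 ranged over 2.24 times.

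**Figure D2:**
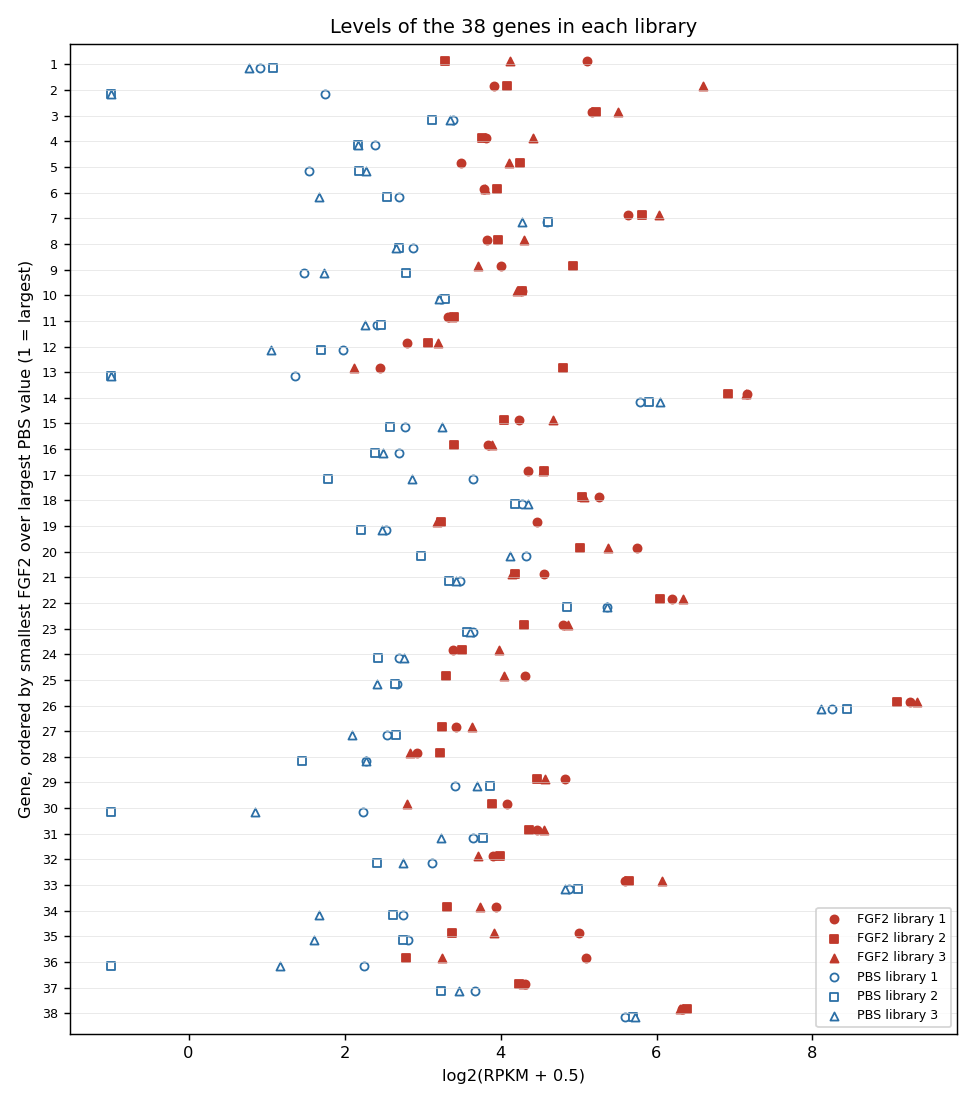
Each row is 1 of the 38 genes, and each point its level in 1 library as log2(RPKM + 0.5), with FGF2 libraries filled and PBS libraries open. In every row the filled points lie to the right of the open ones, as the rule requires. Points at the left edge are PBS values of 0, which genes 2, 13, 30 and 36 have.

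By their mean over all 6 libraries, the 38 genes were less abundant than a typical gene at that level. This mean and the floor of 5 RPKM include the FGF2 values, which the rule took as high. Some genes reached the floor only through them, such as genes 1, 2 and 13, with PBS means of 1.41, 0.95 and 0.69 RPKM. The shares below thus depend on the choice of genes and are a description. Their mean RPKM had a median of 11.8, beside 19.6 for the 7551 genes. A mean under 20 RPKM was found in 28 of the 38 genes (73.7%), beside 50.7% of the 7551. A mean of at least 50 RPKM was found in 4 of the 38 (10.5%), beside 23.6%.

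These 4 abundant genes were genes 14, 22, 26 and 38. Gene 26 was the highest, at 608.4, 542.3 and 648.3 RPKM in FGF2 libraries 1, 2 and 3, against 302.8, 348.2 and 274.5 RPKM in PBS libraries 1, 2 and 3. Only 2.87% of the 7551 genes had a higher mean. Gene 14 stood at 142.2, 120.5 and 141.5 RPKM with FGF2 and at 54.9, 59.6 and 65.3 RPKM with PBS. In genes 14 and 26 each treatment varied by at most 1.27 times, so the gap between treatments was wider than either range.

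Gene 22 stood at 73.0, 65.7 and 80.6 RPKM in FGF2 libraries 1, 2 and 3, against 40.9, 28.5 and 40.8 RPKM in PBS libraries 1, 2 and 3. PBS library 2 was its lowest. Gene 38 stood at 79.5, 83.4 and 78.6 RPKM with FGF2 and at 47.9, 51.3 and 52.4 RPKM with PBS, and it had the smallest ratio of the group. Its libraries were almost level within each treatment, with an SD of 2.53 RPKM for FGF2 and 2.35 RPKM for PBS (n = 3 each). Genes 33 and 7 followed in mean level, and gene 33 stood at 47.9, 49.8 and 66.5 RPKM with FGF2 and at 28.9, 31.4 and 27.9 RPKM with PBS.

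In 17 of the 38 genes both treatments varied by less than 1.5 times between their libraries. Gene 10 was the most even, at 18.8, 18.8 and 18.03 RPKM in FGF2 libraries 1, 2 and 3, against 8.94, 9.23 and 8.75 RPKM in PBS libraries 1, 2 and 3. Its FGF2 mean was 2.07 times its PBS mean, and the ratios within numbers 1, 2 and 3 were 2.10, 2.04 and 2.06. Gene 11 was nearly as even at a lower level, with 9.54, 10.1 and 9.94 RPKM with FGF2 and 4.84, 5.05 and 4.31 RPKM with PBS. Gene 12 was lower still and less even, with 6.46, 7.93 and 8.68 RPKM with FGF2 and 3.46, 2.75 and 1.59 RPKM with PBS. Over the 38 genes, the SD on the log2 scale had a median of 0.24 among FGF2 libraries and of 0.22 among PBS libraries, beside 0.40 and 0.33 for the 7551 genes. The rule takes genes whose 2 ranges are far apart and so favours a narrow spread.

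In 9 genes the FGF2 libraries differed by more than 2 times, and in 11 genes the PBS libraries did. Gene 36 stood at 33.7, 6.42 and 9.03 RPKM in FGF2 libraries 1, 2 and 3, against 4.26, 0 and 1.74 RPKM in PBS libraries 1, 2 and 3. Gene 35 stood at 31.6, 9.90 and 14.6 RPKM with FGF2 and at 6.53, 6.23 and 2.54 RPKM with PBS. Gene 19 stood at 21.7, 8.91 and 8.61 RPKM with FGF2 and at 5.28, 4.12 and 5.10 RPKM with PBS. FGF2 library 1 was the highest of all 6 in these 3 genes.

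Gene 20 stood at 53.3, 32.0 and 41.2 RPKM in FGF2 libraries 1, 2 and 3, above a wide range of 19.6, 7.42 and 16.9 RPKM in PBS libraries 1, 2 and 3. Gene 17 stood at 19.8, 23.1 and 22.7 RPKM with FGF2, against 12.1, 2.96 and 6.80 RPKM with PBS. In both genes PBS library 2 was the lowest and PBS library 1 the highest.

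Gene 30 stood at 16.4, 14.4 and 6.499 RPKM in FGF2 libraries 1, 2 and 3, against 4.23, 0 and 1.31 RPKM in PBS libraries 1, 2 and 3. Together with genes 2, 13 and 36 it was listed at 0 in PBS library 2, and genes 2 and 13 also in PBS library 3. A value of 0 in a PBS library was found in 204 of the 7551 genes, 169 of them in PBS library 2, 106 in PBS library 1 and 34 in PBS library 3. In FGF2 libraries 1, 2 and 3, 85, 123 and 55 of these genes were at 0. Of the 204, 4 genes were at 0 in every PBS library and also in at least 1 FGF2 library, and so did not pass the rule.

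The gene models of the 38 genes had a median length of 1812.5 bases (quartiles 1192.5 and 2499.75), beside 1841 bases (1138.5 and 2796.5) for the 7551 genes. Genes 2, 9 and 13 had models under 200 bases, which are 3 of 38 (7.89%), beside 1.72% of the 7551. Their PBS means were 0.95, 3.84 and 0.69 RPKM, so they reached the floor of 5 RPKM only through their FGF2 values. The share of short models thus depends on the choice of genes and is a description. All lengths given here are the smallest that fit the values, and the true lengths and reads may be larger. Gene 9, of 84 bases, stood at 15.5, 30.1 and 12.6 RPKM in FGF2 libraries 1, 2 and 3, against 2.28, 6.41 and 2.82 RPKM in PBS libraries 1, 2 and 3. These are 20, 54 and 21 reads with FGF2 against 1, 9 and 4 reads with PBS. The ratio of its pooled reads, scaled in the same way, was 4.66, with a 95% interval of 2.65 to 8.86 (exact Clopper-Pearson, counting error only). It was 7.44 without PBS library 2, which held 9 of the 14 PBS reads.

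Gene 13, of 92 bases, stood at 4.97, 27.5 and 3.84 RPKM in FGF2 libraries 1, 2 and 3, against 2.08 RPKM in PBS library 1 and 0 RPKM in PBS libraries 2 and 3. These are 7, 54 and 7 reads with FGF2, against 1 read with PBS. The ratio of its pooled reads, scaled in the same way, was 46.7, with a 95% interval of 8.11 to 1873.2. FGF2 library 2 held 54 of the 68 FGF2 reads, and without it the ratio was 15.5 (2.35 to 654.4). It was 26.6 without PBS library 2 and 26.4 without PBS library 3, and without PBS library 1 no PBS read was left. In genes 2, 9 and 13 the lead of FGF2 thus rested on 2, 14 and 1 recovered PBS reads. The true reads may be larger, and the intervals take the recovered ones. All 3 were chosen by these same reads, so their intervals are no evidence for a response. By contrast, 33 of the 38 genes had at least 100 reads over the PBS libraries, and the median gene had 1716.5 reads with FGF2 and 458.5 reads with PBS. In PBS library 1 the median was 74.5 reads, and 15 genes had fewer than 50.

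**Figure D3:**
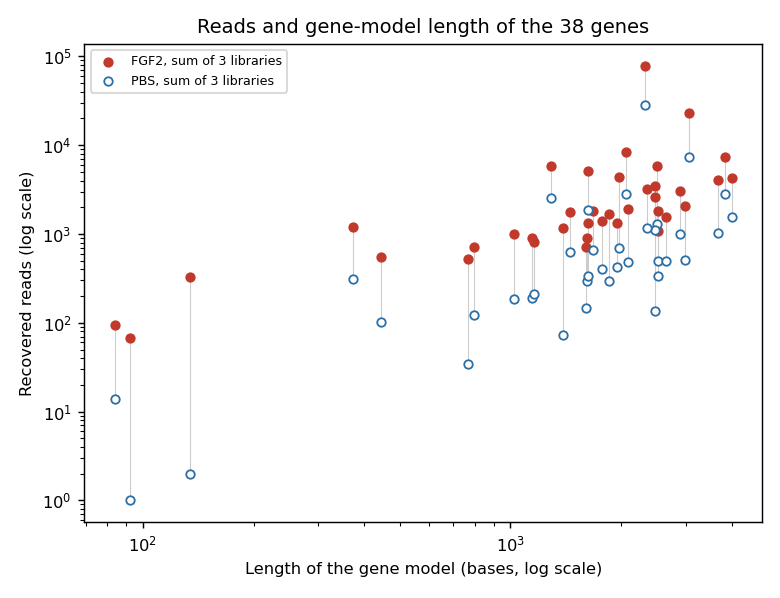
The reads of each of the 38 genes, summed over the 3 FGF2 libraries (filled) and the 3 PBS libraries (open), stand against the length of the gene model, both on log scales, and a line joins the 2 sums of a gene. The FGF2 libraries hold 1.45 times as many counted reads in all as the PBS libraries, so part of each gap is depth. The 3 points at the left are the models of 84, 92 and 134 bases, with 14, 1 and 2 PBS reads.

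The FGF2 and PBS libraries that share a replicate number were taken as those of one experiment, which neither the labels nor the paper state. All 38 genes were at least 1.5 times higher with FGF2 in each of the 3 experiments, which the rule fixes, as were 191 of the 7551 genes (2.53%). The median difference over the 38 genes was 1.09, 1.14 and 1.41 on the log2(RPKM + 0.5) scale in experiments 1, 2 and 3, beside 0.21, 0.01 and 0.04 over all genes tested. The difference was largest in experiment 3 for 17 of the 38 genes, in experiment 2 for 11 and in experiment 1 for 10. For the 7551 genes these shares were 28.2%, 33.0% and 38.8%.

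Single genes differed in which experiment was highest. In gene 1 the ratios were 24.6, 5.72 and 13.9 in experiments 1, 2 and 3, so that experiment 1 was highest. In gene 17 they were 1.64, 7.795 and 3.34, and in gene 28 they were 1.63, 3.97 and 1.54. In genes 12 and 34 the ratio was largest in experiment 3, at 5.47 and 4.74. The ratios of gene 15 were 2.89, 2.92 and 2.78 and thus almost the same.

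**Figure D4:**
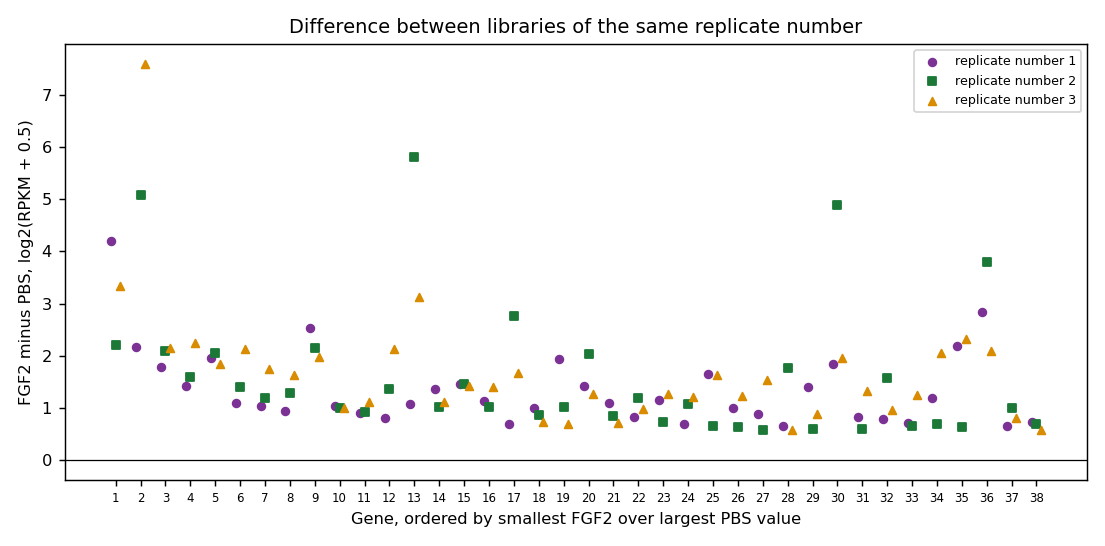
For each of the 38 genes, the 3 points give the difference between the FGF2 and the PBS library of the same replicate number on the log2(RPKM + 0.5) scale. All points lie above 0, as the rule requires. Those of genes 10, 11, 15 and 38 lie close together, and those of genes 2, 13, 30 and 36 are far apart where a PBS library is at 0.

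Among the FGF2 libraries, library 3 was the highest for 15 of the 38 genes, library 1 for 13 and library 2 for 10, beside 28.3%, 43.8% and 27.9% of the 7551 genes. Among the PBS libraries, library 2 was the lowest for 19 genes, library 3 for 14 and library 1 for 5, beside 40.4%, 22.9% and 36.7%. With each gene centred on its treatment mean, the 2 libraries of experiment 1, of experiment 2 and of experiment 3 had correlations of 0.01, 0.03 and -0.17 across the 38 genes. Across the 13381 genes tested they were 0.44, 0.28 and 0.40. The correlations share libraries, the 38 genes are few and their spread is bounded by the rule, so these values describe the libraries only.

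The main limma fit, on log2(RPKM + 0.5), did not pair the libraries of one experiment. With Benjamini-Hochberg adjustment over the 13381 genes, 0 of the 38 genes passed an adjusted p under 0.05. The share of all genes called higher was also 0%. The smallest adjusted p among the 38 genes was 0.42, that of gene 3. At an unadjusted p under 0.05, 37 of the 38 genes were higher, where the share of all genes was 2.53%. This contrast chose the genes, so that count follows from the choice. Gene 28 had the largest p, 0.059, at 7.08, 8.86 and 6.68 RPKM with FGF2 and 4.34, 2.23 and 4.33 RPKM with PBS. In any gene, separated or not, 3 unpaired libraries against 3 cannot give an exact two-sided permutation p below 0.1.

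When libraries of one experiment were set against each other on recovered reads (limma-voom with the replicate block), 6 of the 38 genes passed an adjusted p under 0.05, where the share of all genes called higher was 0.105%. This fit used the same libraries and the same contrast as the rule, so the count follows in part from the choice of genes and nothing is read from it. Over all genes it called 14 higher and 26 lower. The 6 were genes 3, 14, 15, 20, 22 and 26. Their log2 fold changes in this fit were 2.13, 1.14, 1.51, 1.57, 1.03 and 0.95, with standard errors of 0.29, 0.14, 0.26, 0.26, 0.18 and 0.12. Their adjusted p were 0.0097, 0.0071, 0.035, 0.024, 0.038 and 0.0071 from limma-voom. Without the block, limma-voom called 0 genes, and 420 genes were higher at an unadjusted p under 0.05. Without experiment 1 the paired fit called 0 of the 38, and 0 of all 13381 genes higher. Without experiment 2 it called 11 of the 38, beside 81 of the 13381 genes. Without experiment 3 it called 4 of the 38, beside 19 of the 13381. Genes 1 and 2, which had the largest ratios, were not called in the fit of all libraries (adjusted p = 0.092 and 0.28 from limma-voom).

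At the threshold, genes 36, 37 and 38 had ratios of 1.51, 1.502 and 1.5004, and the closest genes outside had 1.48, 1.48 and 1.46. Gene 37 stood at 19.4, 18.3 and 19.0 RPKM in FGF2 libraries 1, 2 and 3, against 12.2, 8.89 and 10.6 RPKM in PBS libraries 1, 2 and 3. The first gene outside stood at 31.0, 18.6 and 23.7 RPKM with FGF2 and at 12.6, 10.6 and 10.1 RPKM with PBS. The second stood at 12.9, 11.6 and 12.6 RPKM with FGF2 and at 7.86, 7.13 and 7.35 RPKM with PBS. The third stood at 13.2, 8.71 and 8.13 RPKM with FGF2 and at 4.81, 2.78 and 5.57 RPKM with PBS, so none of the 3 overlapped between treatments. The mean level of the lowest of the 38 genes was 5.14 RPKM, and 78 further genes met the ratio with PBS above 0 but had a mean below 5 RPKM. No gap in the values thus separated the 38 genes from those next to them. A complete separation, with all FGF2 values above all PBS values, was found in 646 of the 7551 genes (8.56%), and thus in 38 of 38 by the rule.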

How the data were processed

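RNA-seq libraries of 3 FGF2 and 3 PBS samples were grouped by their labels, and the table's control columns were read as PBS. The authors aligned reads with HISAT2 to Gallus gallus build 5 with Ensembl gene models, used edgeR for their own test and deposited RPKM per gene. The paper names the systemPipeR tools for its analysis; which of them counted reads is not stated there, nor is a strand setting. Overlapping or near-identical genes may share reads. Totals, reads and lengths were recovered from the RPKM as whole numbers within 0.001 read, up to a factor shared by all reads of a library. Recovered reads were 98.8% to 99.2% of the totals. The scale of the totals was chosen to bring these sums close, so this share is no independent check. The length of each gene model was the smallest that fits its values, so the true length and reads may be larger. On simulated libraries 6 of 6 totals were recovered, and all reads of 94.8% of 17857 genes. The simulation started from the recovered lengths and reads, so a length already too short there would count as right. limma 3.58.1 (R 4.3.3) with a variance trend was run on log2(RPKM + 0.5) over genes that averaged at least 0.5 RPKM, two-sided; on simulated data for these 13381 genes it recovered 4.5%, 32.8% and 48.5% of genes changed 2-, 4- and 8-fold. The recovered reads were tested with limma-voom as an alternative, and edgeR was not run here because the deposited unit is RPKM.

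The paper describes 3 independent experiments, and same-numbered libraries deviated together (correlations across genes of 0.44, 0.28 and 0.40, each over 0.1). Equal numbers were therefore treated as pairs in the values per experiment and in the fits with the replicate block. The main limma fit did not use these pairs, and the paper does not state them. Replicates are pools from separate experiments. The fixed rule for named genes allowed 2 IDs where no table pairs IDs with names: the names table (assembly GRCg7b) lists 25635 genes and 0 Ensembl IDs. The 19 gene and marker lists (346 symbols) were therefore not applied. By number, the rule took genes 1 to 12, the 6 with the highest mean and the 3 on each side of the threshold; genes 13, 15, 17, 19, 20, 28, 30, 34 and 35 were picked after their values were seen. Genome positions and sequences were not used here. The 38 genes and the lists were chosen with earlier results of these data known. Intervals cover counting error only, since reads without molecular identifiers are not independent molecules. They leave out the differences between libraries and the choice of the genes by the same reads.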

Additional observations from a re-analysis of the deposited data

How the results depend on the processing

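The count of 0 genes higher at an adjusted p under 0.05 from limma held in 21 of 25 other settings, among them both pseudocounts, all filters, both scalings, no trend, the replicate block (0), the replicate block with median-ratio scaling and leaving out any library or experiment (0 to 0). An unadjusted p under 0.05 gave 339, and the paired fit on reads (limma-voom, replicate block) gave 14, beside 26 lower. In that paired fit, leaving out experiments 1, 2 and 3 in turn, which was added after seeing the data, gave 0, 81 and 19. The number of genes passing the rule was 38 and moved with it: 124 at a looser ratio, 8 at a ratio of 2, 92 at a mean of at least 1 RPKM, 25 at a mean of at least 10 RPKM, 23 after quantile normalization (18 of the 38) and 191 with the replicate block (within numbers; all 38). Median-ratio scaling gave 26, of which 24 were among the 38, and a pseudocount of 0.5 gave 30, all among the 38. Leaving out 1 library gave 60 (PBS library 2) to 224 (FGF2 library 2). Fewer values then had to clear the ratio, and the mean of at least 5 RPKM was taken over the libraries left. Of the 38 genes, 36, 35 and 37 still passed without FGF2 libraries 1, 2 and 3, and all 38 without any 1 PBS library. Leaving out a library cannot lower the ratio of a gene, so any of the 38 that were lost fell below the mean of 5 RPKM. These counts thus follow from the choice of genes and do not measure how stable it is. By definition, the looser ratio, the lower mean and the replicate block hold all 38 genes. The higher ratio, the higher mean and the pseudocount can only take genes from among them. The cause of the other shifts was not tested. The median difference of the 38 genes stayed between 1.12 and 1.34 on the log2 scale in 10 settings, and all 38 genes stayed higher with FGF2 in every fit, which the choice of genes fixes. ENSGALG00000007669 had a log2 fold change of 2.77 to 4.04 and passed the adjusted threshold in 1 of 24 settings. That setting was the paired fit without experiment 2, added after seeing the data (adjusted p = 0.0083 from limma-voom, over all settings 0.0083 to 1). ENSGALG00000025418 had 3.63 to 7.56 and passed in 0 of 24. The rule chose both genes by this same contrast, so these p are a description and not evidence for a response. Without each library in turn, added after seeing the data, the pooled read ratio was 40.8 to 157.5 for gene 2, 3.24 to 7.44 for gene 9 and 15.5 to 64.6 for gene 13. For genes 2 and 13 these ranges leave out PBS library 1, without which no PBS read was left and no ratio could be given. Few reads limit the low genes: PBS library 1 had the fewest reads and PBS library 2 the fewest genes above 0.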
